A study of Mus musculus with 6 samples.

Results

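MiR-126 is a microRNA (miRNA) of blood vessel lining cells, and its 2 arms, miR-126-3p and miR-126-5p, were followed in brown and subcutaneous adipose tissue of the mouse. The arms were picked by name, not by their values, and are 2 of the 1251 miRNA rows in the deposited small RNA sequencing table. The brown group (BF-EPA, libraries 3, 4 and 5) was interscapular brown fat, a depot that burns fuel to make heat. The group it was set against (SUB-EPA, libraries 1, 3 and 8) came from inguinal subcutaneous fat, a white depot. Both groups were C57BL/6J mice, an inbred strain, whose feeding began at 5 to 6 weeks of age. For 11 weeks both received a high fat diet (45% of energy from fat, 20% from protein, 35% from carbohydrate), and the sample titles and the series' design text add 6.75% of EPA (eicosapentaenoic acid, a fatty acid of fish oil). Mice were fasted for 4 hours before the tissues were frozen. The labels do not say whether each library is a separate mouse, so p-values measure the spread between these libraries, which may be technical. With EPA-fed groups alone, the comparison made here is between tissues.

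A miRNA hairpin is cut into a duplex whose 2 strands, the 5p and the 3p arm, can each be loaded into an Argonaute protein and repress different messenger RNAs. MiR-126 is encoded within Egfl7, a gene for a secreted protein of endothelial cells, and is among the miRNAs most enriched in endothelium. Its 3p arm represses Spred1 and Pik3r2, which restrain signalling downstream of vascular endothelial growth factor, and Vcam1, which binds leukocytes to the vessel wall. Its 5p arm represses Dlk1 in endothelial cells and supports their proliferation. Platelets and some blood progenitors also carry miR-126, and brown fat is known as a densely vascularised tissue.

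In the mouse the hairpin lies on the plus strand of chromosome 2, at chr2:26591357-26591429 (GRCm38), inside Egfl7 (chr2:26580014-26593120). Of the 19 annotated Egfl7 transcripts, 9 span it, and it is intronic in 8 of them (intron 7 in transcripts of 10 exons) and exonic in 1, a retained-intron transcript. RefSeq lists the locus as Mir126a, and Mir126b, annotated on the opposite strand, was not analysed here. The hairpin is shown because both arms come from this single transcript, with the mature 3p arm (bases 46 to 67) in capitals. The mature 3p sequence follows with its seed, bases 2 to 8, in capitals, since the seed sets which messenger RNAs are bound (RefSeq, GRCm38.p6).
Mir126a hairpin: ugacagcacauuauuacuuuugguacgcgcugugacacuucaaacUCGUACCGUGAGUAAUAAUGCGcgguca
miR-126-3p: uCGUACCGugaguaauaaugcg
Among the 1013 rows of the table matched to a RefSeq mature sequence, 0 others carry this seed, so the 3p arm has no measured seed relative here. Its GC content is 45.5%, against a median of 50.0% for the 232 tested miRNAs with a sequence. MiR-126-5p had no matched sequence.

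The deposited values are normalized log2 abundances with a floor at 3.32, and 235 to 273 miRNAs stood above the floor in each library. The libraries had nearly equal distributions, so every value is a place in its own library. Read depth per library is unknown. In whole tissue, fewer cells of a type and less RNA per cell cannot be told apart. The 4 brown adipocyte miRNAs listed were all called higher in the libraries labelled brown fat, against 33.5% of all tested miRNAs. BF-EPA 4 and SUB-EPA 3 stood apart in miR-133a-3p, a skeletal muscle miRNA (17.20 and 16.90, against 10.32 to 13.32 in the other 4 libraries). SUB-EPA 1 stood apart in miR-205-5p, an epithelial miRNA (15.02, against 3.32 in the brown libraries and 5.74 to 7.35 in the other subcutaneous ones). Libraries also differed by tissue in how abundance followed GC content: per 10 percentage points of GC, abundance changed by 0.18 to 0.26 on the log2 scale in brown libraries and by -1.22 to -0.91 in subcutaneous ones.

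MiR-126-3p was lower in brown than in subcutaneous fat, by 4.10-fold, and miR-126-5p was lower by 1.88-fold. The values of brown and subcutaneous libraries did not overlap for either arm. MiR-126-3p stood at 10.82, 10.76 and 11.18 (log2) in BF-EPA 3, 4 and 5, and at 12.89, 12.89 and 13.09 in SUB-EPA 1, 3 and 8. All 3 brown libraries were thus below all 3 subcutaneous ones, with a gap of 1.72 between the nearest values, and the spread within either tissue was at most 0.42. The means were 10.92 ± 0.22 in brown and 12.96 ± 0.11 in subcutaneous fat (SD, n = 3 each). The log2 difference, brown minus subcutaneous, was -2.04 ± 0.17 (SE; 95% interval -2.44 to -1.63; limma adjusted p = 0.000106), which is a 4.10-fold lower level in brown fat (interval 3.10 to 5.44). When each library's trend with GC content was removed, the difference was -1.26 ± 0.16 (adjusted p = 0.000801), or 2.39-fold. Without SUB-EPA 1 the difference was -2.07, and without BF-EPA 4 and SUB-EPA 3 it was -1.99.

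MiR-126-5p stood at 10.61, 10.56 and 10.56 in BF-EPA 3, 4 and 5, and at 11.18, 11.34 and 11.94 in SUB-EPA 1, 3 and 8. The brown libraries were nearly equal, while the subcutaneous ones spread over 0.76, with SUB-EPA 8 the highest, and the gap between the tissues was 0.57. The means were 10.57 ± 0.03 in brown and 11.48 ± 0.40 in subcutaneous fat (SD, n = 3 each). The difference was -0.91 ± 0.23 (SE; 95% interval -1.46 to -0.36; limma adjusted p = 0.0114), a 1.88-fold lower level in brown fat (interval 1.28 to 2.75). Scaling libraries by the median of ratios ended this call (-0.49, adjusted p = 0.0995). It was also lost without both libraries numbered 3 (-0.997, adjusted p = 0.0786) and without BF-EPA 4 and SUB-EPA 3 (-0.97, adjusted p = 0.0710). Without SUB-EPA 1 the difference was -1.06 (adjusted p = 0.0103). Without SUB-EPA 8 it was -0.68 (adjusted p = 0.0191). Removing the GC trend gave no value for this arm, which had no matched sequence, so its direction in that setting is unknown.

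**Figure D1:**
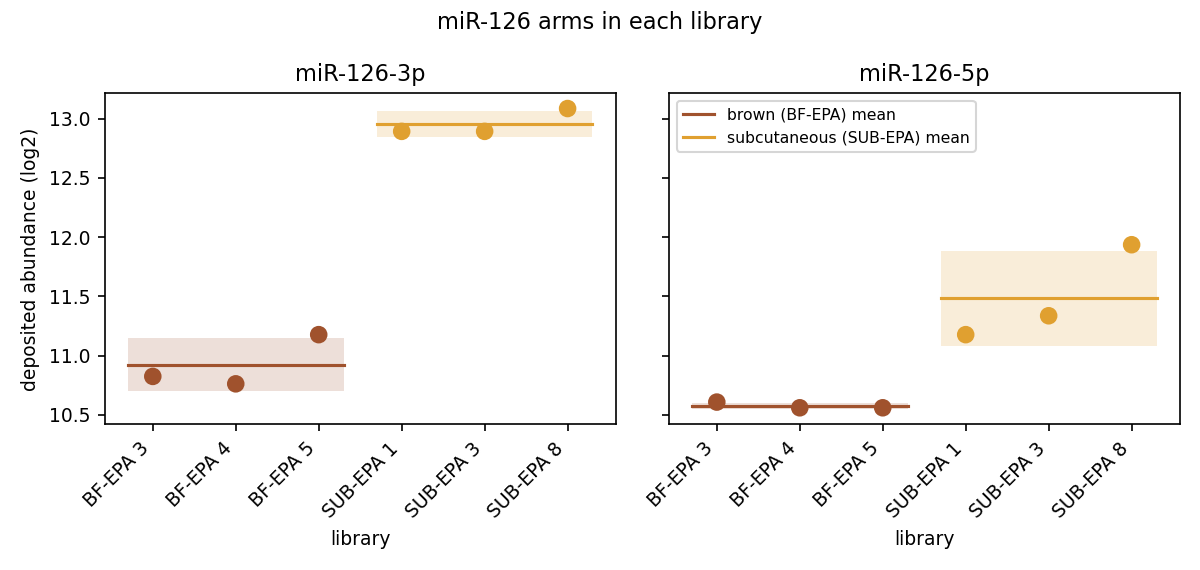
Deposited log2 abundance of miR-126-3p (left) and miR-126-5p (right) in each library, brown (BF-EPA) left of subcutaneous (SUB-EPA). Lines are group means and bands 1 SD (n = 3 each); the brown libraries lie below the subcutaneous ones in both panels, by 2.04 on average for the 3p arm and 0.91 for the 5p arm.

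Some values of the arms are exactly equal because equal places in different libraries received equal values: BF-EPA 4 and 5 for the 5p arm, and SUB-EPA 1 and 3 for the 3p arm. Such ties can make an SE too small. As places in a library, miR-126-3p was 75th, 76th and 68th most abundant in BF-EPA 3, 4 and 5 and 40th, 40th and 38th in SUB-EPA 1, 3 and 8. MiR-126-5p was 80th, 81st and 81st in BF-EPA 3, 4 and 5 and 68th, 65th and 54th in SUB-EPA 1, 3 and 8. In share of the summed abundance above the floor, miR-126-3p made up 0.0718% to 0.0959% of brown and 0.316% to 0.361% of subcutaneous libraries. For miR-126-5p the shares were 0.0623% to 0.0645% in brown and 0.0958% to 0.163% in subcutaneous libraries. Averaged over the 6 libraries, miR-126-3p (11.94) ranked 49th of the tested miRNAs, between miR-378a-5p (11.94) and miR-139-5p (11.92). MiR-126-5p (11.03) ranked 68th, between miR-30a-3p (11.03) and miR-26b-5p (10.97). Neighbours in abundance differed between the tissues in quite other ways: the log2 difference was 4.10 for miR-378a-5p, 0.59 for miR-139-5p (0.20 and not called with the GC trend removed), -0.23 for miR-30a-3p (not called) and -3.25 for miR-26b-5p (-0.88 with the GC trend removed).

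Differences between these tissues were common. Of the 269 tested miRNAs, 69.1% were called in either direction at a limma adjusted p of 0.05 and 35.7% were called lower in brown fat. Both of the 2 miR-126 arms were called lower; 33.5% of the tested miRNAs were called higher. The groups did not overlap in 74.0% of the tested miRNAs, or in 40.1% with brown fat lower. A call or a lack of overlap is therefore no sign that miR-126 stands out. Ordered from the lowest difference upward, miR-126-3p was 57th and miR-126-5p 116th of 269. The median difference was -0.45, so relative to it the 3p arm stood at -1.58 and the 5p arm at -0.45. Median-of-ratios scaling moved the median, and with it every difference, by 0.42, so differences relative to the median cannot change under it.

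**Figure D2:**
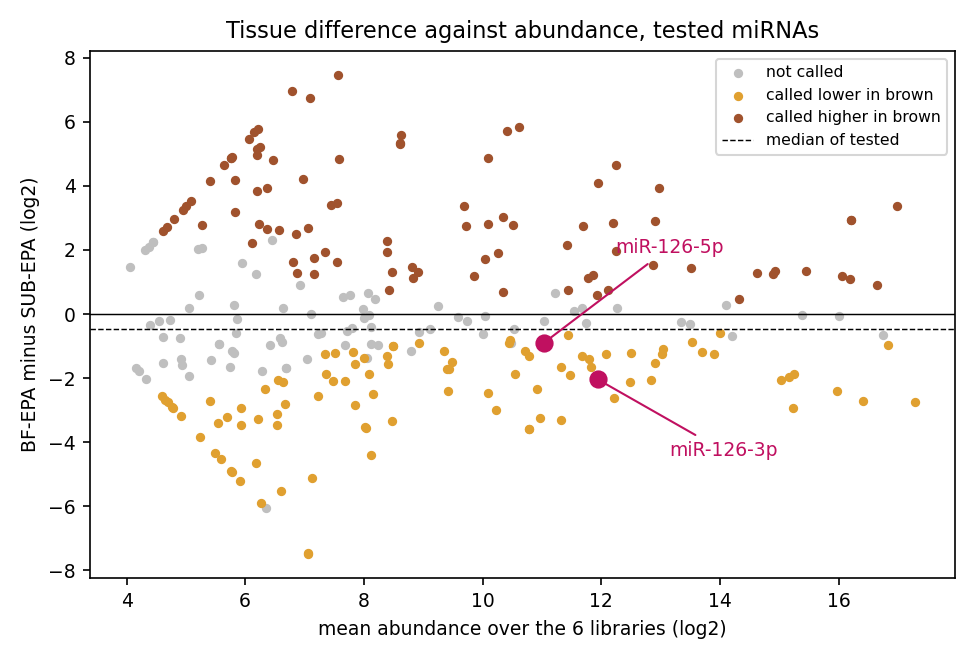
Log2 difference, BF-EPA minus SUB-EPA, against mean log2 abundance over the 6 libraries for the 269 tested miRNAs, 1 point each, coloured by call. MiR-126-3p at -2.04 and miR-126-5p at -0.91 lie below the dashed median of -0.45, among many miRNAs with larger differences.

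The 3p arm was the more abundant of the 2 in every library, but by less in brown fat. The ratio of miR-126-3p to miR-126-5p was 1.16, 1.15 and 1.53 in BF-EPA 3, 4 and 5, and 3.29, 2.94 and 2.22 in SUB-EPA 1, 3 and 8. The highest brown ratio was below the lowest subcutaneous one. Of the summed linear values of both arms, the 3p arm made up 53.8%, 53.5% and 60.5% in the brown libraries. In the subcutaneous ones it made up 76.7%, 74.6% and 68.9%. These shares follow from places in a library and are not shares of reads. On the log2 scale the ratio averaged 0.35 ± 0.24 in brown and 1.47 ± 0.29 in subcutaneous fat (SD, n = 3 each). The difference in this ratio was -1.13 ± 0.31 (SE; 95% interval -1.84 to -0.42; limma over hairpins, adjusted p = 0.0151), so the 3p arm was 2.19-fold less favoured in brown fat. Scaling of a whole library cancels in this ratio, but equal distributions and a trend with GC content need not. With the GC trend removed the ratio had no value. The call was lost without both libraries numbered 3 (-1.02, adjusted p = 0.0915) and without BF-EPA 4 and SUB-EPA 3 (-1.02, adjusted p = 0.108). With 3 libraries against 3, an exact two-sided permutation test gave p = 0.10 for the ratio and for each arm, the smallest p that this design allows.

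Arm ratios of other hairpins often differed too. Of the 54 hairpins with both arms tested, 51.9% had a called difference in arm ratio, 22.2% in the direction of miR-126 and 29.6% in the other. The size for miR-126 was below the median: 33 hairpins had a larger absolute difference, and the median absolute difference was 1.499. The arms of miR-126 were closer to equal than those of most hairpins. In brown fat 3 of the other hairpins had arms closer to equal, and in subcutaneous fat 7 did. Of those in brown fat, miR-335 and miR-324 had an arm at the floor in every brown library, so their ratios are limited by the floor. The median absolute log2 ratio was 3.63 in brown and 4.25 in subcutaneous fat. For 6 hairpins the more abundant arm was not the same in the 2 tissues, and miR-126 was not one of these. The called hairpins whose 3p over 5p ratio was most reduced in brown fat were miR-193a (log2 difference -4.97), miR-27a (-4.56) and miR-350 (-3.34). Those whose ratio was most increased were miR-1843b (5.23), miR-708 (4.96) and miR-434 (4.03). With the GC trend removed the difference was 3.61 for miR-1843b and -4.38 for miR-193a, both still called. In miR-27a, miR-350, miR-708 and miR-434, an arm was at the floor in 2 or 3 libraries, so these sizes are limited by the floor; neither miR-126 arm was at the floor in any library. The miR-350 call was lost when the GC trend was removed (-1.81, adjusted p = 0.104), and that of miR-708 when the floor was subtracted and 1 added (7.24, adjusted p = 0.0512).

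**Figure D3:**
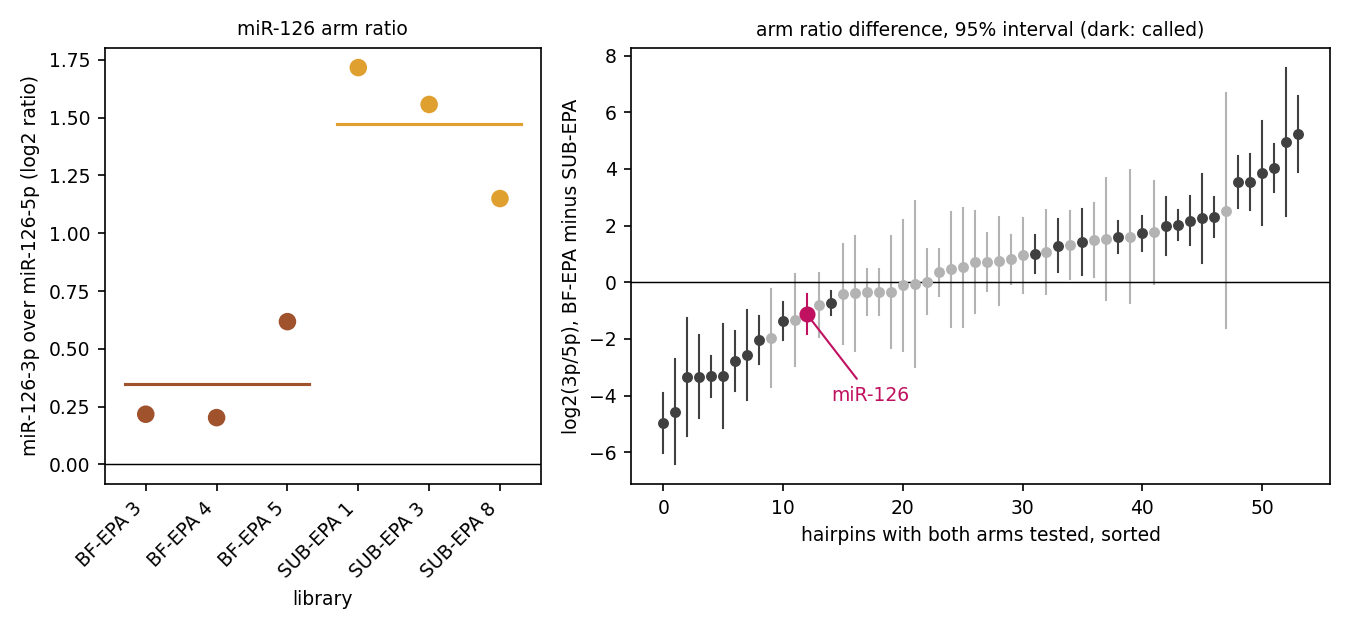
Left, log2 ratio of miR-126-3p to miR-126-5p in each library with group means (lines), 0.35 in BF-EPA and 1.47 in SUB-EPA. Right, difference in log2 arm ratio, BF-EPA minus SUB-EPA, with 95% intervals for the 54 hairpins, where miR-126 at -1.13 lies among many larger differences of either sign.

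The arms resembled other miRNAs more than each other. Likeness was measured as the root mean square difference between log2 profiles over the 6 libraries, each centred on its own mean, as a description without a test. The distance between the 2 miR-126 arms was 0.605. By it miR-126-5p was 57th nearest to miR-126-3p among 268 other tested miRNAs, and miR-126-3p was 64th nearest to miR-126-5p. Closest to miR-126-3p were miR-143-3p (0.133), a miRNA of smooth muscle, miR-99b-3p (0.138), miR-30a-5p (0.139), miR-497-5p (0.169) and miR-103-3p (0.193), against a median distance of 1.26. Closest to miR-126-5p were miR-181a-5p (0.159), miR-148a-5p (0.178), miR-34a-5p (0.234), miR-29a-3p (0.252) and miR-24-2-5p (0.254), against a median of 1.15. The first group differed between the tissues by -2.33 to -1.95 and the second by -1.36 to -0.87 on the log2 scale. All 10 were called lower in brown fat, against 35.7% of all tested miRNAs. They were chosen for likeness to arms that were lower in brown fat, so their direction and size follow from that choice. With the GC trend removed the difference was -3.71 for miR-99b-3p and -1.17 for miR-30a-5p, both still called. Of the second group, the difference of miR-29a-3p turned to 0.52 with the GC trend removed (limma adjusted p = 0.0401). The miR-148a-5p call was lost there (-0.40, adjusted p = 0.325) and without BF-EPA 3 (adjusted p = 0.0527). The miR-34a-5p call was lost without any one of BF-EPA 3, BF-EPA 5, SUB-EPA 3 or SUB-EPA 8 (adjusted p 0.0541 to 0.0638). Median-of-ratios scaling ended the calls of miR-148a-5p (-0.76), miR-34a-5p (-0.50) and miR-29a-3p (-0.45), and so did leaving out BF-EPA 4 and SUB-EPA 3 (-1.29, -0.93 and -0.92). Leaving out both libraries numbered 3 ended those of miR-148a-5p (-1.15) and miR-34a-5p (-0.82).

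The mature sequences of 9 of these 10 miRNAs, all but miR-143-3p, are shown to compare their seeds (capitals, bases 2 to 8) with that of miR-126-3p. The 10 mature sequences printed here hold 10 distinct seeds.
miR-99b-3p: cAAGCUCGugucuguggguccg
miR-30a-5p: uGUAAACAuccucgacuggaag
miR-497-5p: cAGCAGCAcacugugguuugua
miR-103-3p: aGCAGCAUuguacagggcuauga
miR-181a-5p: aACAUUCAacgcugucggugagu
miR-148a-5p: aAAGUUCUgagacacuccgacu
miR-34a-5p: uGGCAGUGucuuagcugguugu
miR-29a-3p: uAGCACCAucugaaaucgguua
miR-24-2-5p: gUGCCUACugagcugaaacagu
They are encoded on chromosome 17 (miR-99b-3p), 1 (miR-30a-5p), 11 (miR-497-5p), 11 and 2 (miR-103-3p), 1 and 2 (miR-181a-5p), 6 (miR-148a-5p and miR-29a-3p), 4 (miR-34a-5p) and 8 (miR-24-2-5p).

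The other miRNAs listed as acting on blood vessels were read against the 35.7% called lower and 33.5% called higher among all tested miRNAs. Of 17 miRNAs listed as promoting vessel growth, 11 were tested, of which 8 were called lower and 0 higher, with a median difference of -1.39 against -0.45 over all tested miRNAs. A miRNA high in a single tissue can pass the filter through that tissue alone, so these counts describe the list and support nothing further. The largest differences were those of miR-21a-5p, miR-130a-3p and miR-10b-5p. MiR-21a-5p, known from many cell types, stood at 10.53, 8.71 and 9.78 in BF-EPA 3, 4 and 5 and at 13.18, 12.74 and 12.98 in SUB-EPA 1, 3 and 8, a difference of -3.29 ± 0.45 (SE; limma adjusted p = 0.00103). MiR-130a-3p, which represses antiangiogenic homeobox genes, stood at 8.70, 8.92 and 8.53 in BF-EPA 3, 4 and 5 and at 11.48, 11.81 and 11.88 in SUB-EPA 1, 3 and 8 (difference -3.002 ± 0.199 SE). In none of these did the tissues overlap. MiR-10b-5p, needed for vessel sprouting in zebrafish, stood at 13.51, 13.84 and 13.94 in BF-EPA 3, 4 and 5 and at 16.90, 16.51 and 16.72 in SUB-EPA 1, 3 and 8 (difference -2.95 ± 0.17 SE). With the GC trend removed these 3 differences were -1.32, -1.62 and -1.90, and all 3 remained called. In that setting 7 of the 10 members with a sequence were lower and 1, let-7f-5p, was higher (1.38, adjusted p = 0.00470, against -1.19 as deposited). Of all 232 miRNAs tested in it, 86 were lower and 65 higher. The members called lower were not all the same as before.

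Of 19 miRNAs listed as restraining vessel growth, 15 were tested, and 7 were called lower and 2 higher in brown fat, with 6 not called and a median difference of -1.25 against -0.45 over all tested miRNAs. The share called lower was not far from the 35.7% over all tested miRNAs. MiR-195a-5p stood at 5.77, 6.71 and 6.28 in BF-EPA 3, 4 and 5 and at 9.76, 9.65 and 10.02 in SUB-EPA 1, 3 and 8 (difference -3.56 ± 0.31 SE). MiR-221-3p, which represses the receptor Kit in endothelial cells, stood at 8.73, 9.15 and 8.67 in BF-EPA 3, 4 and 5 and at 12.004, 10.93 and 11.05 in SUB-EPA 1, 3 and 8 (difference -2.48 ± 0.33 SE). Both were lower in all 3 brown libraries than in any subcutaneous one. The 2 called higher were miR-320-3p (difference 1.96 ± 0.29 SE) and miR-92a-3p (1.34 ± 0.21 SE), which represses integrin subunits of endothelial cells. MiR-320-3p stood at 13.56, 12.81 and 13.32 in BF-EPA 3, 4 and 5 and at 10.82, 11.65 and 11.34 in SUB-EPA 1, 3 and 8. The miR-92a-3p call was lost when the GC trend was removed (0.60, adjusted p = 0.0572); miR-320-3p had no matched sequence there. In that setting 7 of 13 were lower and 0 higher, against 86 lower and 65 higher of all 232 tested in it. The members called lower were not all the same as before. Among the changes, miR-214-3p was now called and miR-145a-5p had no value. MiR-195a-5p differed by -2.44. MiR-145a-5p and miR-214-3p of this list are also listed as markers of smooth muscle and fibroblasts.

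Of 7 miRNAs listed as acting on endothelial inflammation, the role closest to the repression of Vcam1 by miR-126-3p, 4 were tested: 3 were called lower and 1 higher, the last again miR-92a-3p, against 35.7% lower and 33.5% higher over all tested miRNAs. Without both libraries numbered 3, 1 was called lower. MiR-146a-5p, which dampens NF-kB signalling, stood at 5.49, 3.32 (the floor) and 6.14 in BF-EPA 3, 4 and 5 and at 8.04, 6.81 and 9.40 in SUB-EPA 1, 3 and 8 (difference -3.10 ± 0.94 SE; limma adjusted p = 0.0242). That call was lost without BF-EPA 3 (adjusted p = 0.0618), BF-EPA 4 (0.0687), SUB-EPA 1 (0.0693) or SUB-EPA 8 (0.0861), and with the GC trend removed (0.133). It was also lost without both libraries numbered 3 (0.0664) and with the floor subtracted and 1 added (0.0723). MiR-181b-5p and miR-10a-5p, which also restrain NF-kB signalling in endothelium, differed by -1.90 ± 0.37 (SE) and -1.86 ± 0.29 (SE), and by -1.16 and -0.82 with the GC trend removed. MiR-10a-5p is also on the list of miRNAs promoting vessel growth. Of these, the miR-181b-5p call was lost without both libraries numbered 3 (adjusted p = 0.0579).

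**Figure D4:**
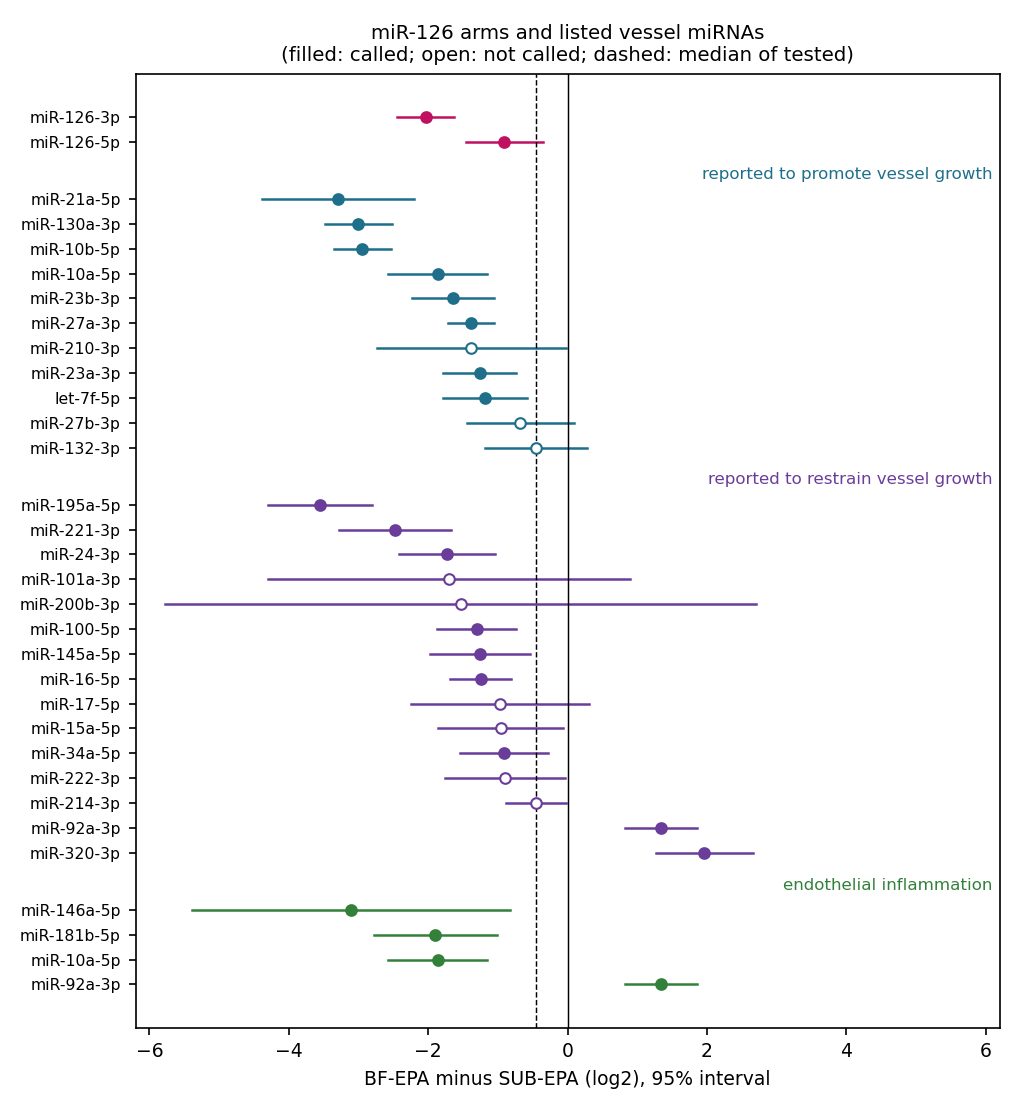
Log2 difference, BF-EPA minus SUB-EPA, with 95% intervals for the miR-126 arms and for tested miRNAs listed as promoting or restraining vessel growth or acting on endothelial inflammation; filled points were called. Most lie left of 0, as do miR-126-3p (-2.04) and miR-126-5p (-0.91), and miR-92a-3p and miR-320-3p lie right of it.

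Apart from miR-126 itself no endothelial marker was on the marker lists, so endothelial content was not measured independently. Markers of other cells of the vessel wall, stroma and blood often differed between the tissues, and their part in the miR-126 difference was not tested. Over all tested miRNAs 69.1% were called, 35.7% lower and 33.5% higher in brown fat, so counts of called markers are no measure of cell content. Both tested smooth muscle miRNAs were lower in brown fat (miR-143-3p by -2.07 ± 0.11 SE and miR-145a-5p by -1.26 ± 0.30 SE), and the summed abundance of the list above the floor was 23827 to 29229 linear units in brown and 82010 to 104264 in subcutaneous libraries. Of 3 fibroblast miRNAs, 2 were lower (miR-199a-5p, -4.38, and miR-199a-3p, -3.58) and miR-214-3p was not called (-0.46), with sums of 1576 to 2191 in brown and 8581 to 9419 in subcutaneous libraries. With the GC trend removed miR-199a-3p differed by -2.20. The miR-214-3p value passed the threshold under 6 other settings, among them the removal of the GC trend (-1.45).

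Of 4 tested leukocyte miRNAs, 3 were lower in brown fat and 1 higher, against 35.7% lower and 33.5% higher over all tested miRNAs. MiR-223-3p, a miRNA of myeloid cells that platelets also carry, stood at 3.32, 3.32 and 4.91 in BF-EPA 3, 4 and 5, that is at the floor in 2 libraries, and at 9.85, 8.79 and 9.45 in SUB-EPA 1, 3 and 8. Its difference of -5.51 depended on the floor: it was -3.65 with 40 added and -7.88 with the floor subtracted and 1 added. MiR-142-5p differed by -2.08, and by 0.29 with the GC trend removed (adjusted p = 0.554), and miR-150-5p of lymphocytes by 1.27. MiR-142-3p and miR-155-5p of the list were at the floor in all 6 libraries, and its sum was 33362 to 45420 in brown and 15051 to 20196 in subcutaneous libraries. That sum was mostly miR-150-5p: in BF-EPA 3 the log2 value was 15.3033 for the list and 15.2978 for miR-150-5p. Of the red cell miRNAs, miR-486-5p differed by 2.95 and miR-451a by -1.49, which became 0.48 with the GC trend removed (adjusted p = 0.157). MiR-144-3p was at the floor in all 6 libraries, and the list's sum was 209716 to 210003 in brown and 19492 to 36269 in subcutaneous libraries. This sum was mostly miR-486-5p: in BF-EPA 3 the log2 value was 17.6792 for the list and 17.6762 for miR-486-5p.

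Skeletal muscle miRNAs were not called: miR-133a-3p differed by -0.31 ± 2.16 (SE) and miR-206-3p by 1.46 ± 1.27 (SE), and miR-1a-3p was at the floor throughout. Their sum ranged from 1264 to 150721 in brown and from 1697 to 122602 in subcutaneous libraries. Of the epithelial miRNAs, miR-205-5p (-6.05 ± 2.299 SE, limma adjusted p = 0.0536) and miR-203-3p (-1.15 ± 1.21 SE) were not called, with sums of 212 to 367 in brown and 299 to 38270 in subcutaneous libraries, the highest in SUB-EPA 1. Without SUB-EPA 1 the miR-205-5p difference was -3.22 (adjusted p = 0.00688) and that of miR-203-3p was 0.30. The miR-205-5p value also passed the threshold without SUB-EPA 8 (-7.86) and under 4 other settings. The liver miRNA miR-122-5p differed by 4.87 ± 1.10 (SE) and was at the floor in all 3 subcutaneous libraries, and its sum was 38 to 996 in brown and 0 in subcutaneous libraries. That difference was 2.89 with 40 added and 8.08 with the floor subtracted and 1 added, and its call was lost without both libraries numbered 3 (3.98, adjusted p = 0.0808). The 4 brown adipocyte miRNAs differed by 1.22 (miR-365-3p) to 5.83 (miR-455-3p), with miR-378a-3p at 3.37 and miR-193b-3p at 3.95. MiR-378a-3p held the highest value, 18.67, in every brown library, so the size of its difference is limited by that ceiling. With the GC trend removed, miR-365-3p differed by 3.79, miR-193b-3p by 2.95 and miR-455-3p by 5.10, all called higher, and miR-378a-3p had no value.

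**Figure D5:**
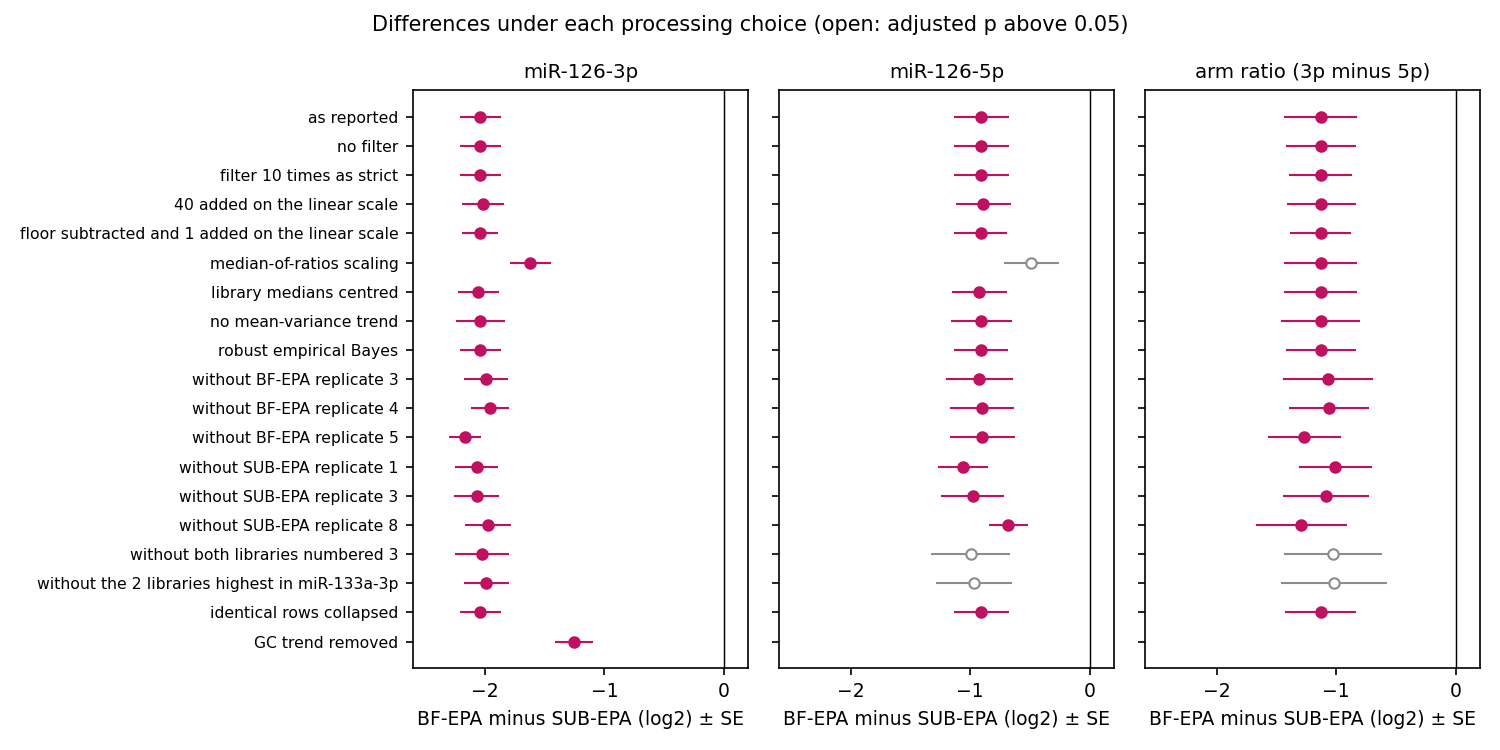
Log2 difference, BF-EPA minus SUB-EPA, ± SE for miR-126-3p, miR-126-5p and their ratio under each processing choice; open points have an adjusted p above 0.05. All points lie below 0. MiR-126-3p ranges from -2.16 to -1.26, and open points occur for miR-126-5p and the ratio. Neither miR-126-5p nor the ratio has a point with the GC trend removed.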

How the data were processed

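Per the series' design text and the submitters' processing notes, small RNA reads were aligned to mm10. Identical reads were counted and scaled by usable reads, with 40 added to the counts. About 13800000 mapped reads per sample were stated, 1 figure given alike for all 6 libraries, so the depth of each is unknown. No aligner, trimming, strand setting or annotation was given in the sources used here. Values deposited by the authors are log2 abundances of 1251 miRNAs in 6 libraries. The floor is 10 on the linear scale, 910 miRNAs are at it in all libraries, and 64.0% of the 100 highest ranks hold 1 value in all libraries, so totals carry no depth, and no counting interval can be given.

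MiRNAs averaging at least 24.05 linear units above the floor were tested, 269 in all. Tissues were compared with limma 3.58.1 (R 4.3.3; mean-variance trend, Benjamini-Hochberg adjustment over all tested miRNAs, called at 0.05). Log2 arm ratios of 54 hairpins were fitted likewise. Differences are brown minus subcutaneous. The fits were run on simulated data with independent noise. Those data lacked the ties, equal distributions, floor and GC trends of these libraries, so they do not vouch for the p-values here. Alternatives were other filters, pseudocounts, scalings and variance models, leaving out libraries, and removing each library's linear trend with mature GC content (232 of the tested miRNAs, 86.2%). The omission of BF-EPA 4 and SUB-EPA 3 (highest in the muscle miRNA miR-133a-3p) and the collapsing of identical rows were chosen after seeing the data. Sequences came from RefSeq (GRCm38.p6), matched by name (1001) or by a hairpin synonym (12), and positions from GENCODE M21. Figures used matplotlib 3.10.9 in Python 3.11.15.

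MiRNAs named are both arms, the 5 nearest in profile to each, the neighbours in abundance and the 3 largest differences of each vessel list. All tested cell type markers are named too, and the 3 called hairpins with the largest ratio difference in each direction. Let-7f-5p, miR-92a-3p and the hairpins miR-335 and miR-324 were named after their values were seen. The members and lists were chosen with earlier results of these data known.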

Additional observations from a re-analysis of the deposited data

How the results depend on the processing

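The direction of both miR-126 arms and of their ratio held under every alternative that gave a value for them. Leaving out 1 library at a time gave -2.16 to -1.96 for miR-126-3p, -1.06 to -0.68 for miR-126-5p and -1.29 to -1.01 for the log2 arm ratio, all called (limma adjusted p at most 0.0441). Calls lost were miR-126-5p with median-of-ratios scaling (-0.49), with both libraries numbered 3 left out (-0.997) and with BF-EPA 4 and SUB-EPA 3 left out (-0.97), and the arm ratio in the last 2 settings (-1.02 in each). The last 2 settings leave 2 libraries against 2. Median-of-ratios scaling moved the median of all tested miRNAs by 0.42; otherwise the cause was not tested. The exact permutation test, on differences of -2.04, -0.91 and -1.13, cannot go below p = 0.10. Removing the GC trend gave no value for miR-126-5p or the ratio, so their direction in that setting is unknown. A reversal there is possible, since miR-126-3p shrank to -1.26 and 3 called values among the other named results changed sign.

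Over all miRNAs, 90 were called higher and 96 lower in brown fat, with 75 to 91 and 90 to 97 without 1 library. With the filter 10 times as strict, which tested 157, 58 were higher and 69 lower. Median-of-ratios scaling turned the balance, to 103 higher and 82 lower, and removing the GC trend (232 tested) gave 65 and 86. The vessel lists had 11, 15 and 4 tested members, with miR-10a-5p and miR-92a-3p listed more than once. Of these miRNAs 19 were called, or 17 to 20 without 1 library. Over all tested miRNAs 69.1% were called, so this count only describes the lists. Of 828 values of the other 47 named results (miRNAs and arm ratios) under 18 alternatives, 776 kept direction and side of the threshold. Counts were not part of this tally. Of the called values among these results, miR-29a-3p (0.52), miR-142-5p (0.29) and miR-451a (0.48) reversed, with the GC trend removed. Outside these results let-7f-5p also reversed there, from -1.19 to 1.38 (limma adjusted p = 0.00470). Values that were not called also changed sign: miR-133a-3p with median-of-ratios scaling (0.10), without both libraries numbered 3 (2.82) and without BF-EPA 3, BF-EPA 5 or SUB-EPA 3 (0.10 to 1.31), miR-30a-3p with median-of-ratios scaling (0.19), and miR-203-3p without SUB-EPA 1 (0.30) and with the GC trend removed (0.23). The miR-708 arm ratio call was lost with the floor subtracted and 1 added (7.24, adjusted p = 0.0512). No paired analysis was possible because the tissues share only 1 replicate number, 3. Depth per library is unknown, so what it limits cannot be stated.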
